A study of Homo sapiens with 6 samples.

Results

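The genes described here are 10 targets, feedback regulators and nuclear effectors of the Wnt pathway: CTNNB1, LEF1, TCF7, TCF7L2, AXIN2, NKD1, RNF43, ZNRF3, APCDD1 and SP5. They were found by symbol in the deposited table, where each has 1 row among 30960 genes. The cells were HEK293, a human embryonic kidney line, transfected with a plasmid for a GFP fusion and harvested 48 h later. The fusion partner was PKI1-24 in 3 libraries (PKI A, B and C) and inPKI1-24, the control in the labels, in the other 3 (inPKI A, B and C). Both groups therefore carried GFP and received the same 158 ng of plasmid per square centimetre. The cells are 1 line, and the labels do not state whether a group's libraries were separate cultures. The p-values therefore cover the variation among these 6 libraries alone, part or all of which could be technical.

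Protein kinase A (PKA) is the main kinase switched on by cAMP, and PKI proteins are its natural inhibitors. In the Wnt pathway a ligand binds a Frizzled receptor and an LRP co-receptor, which stops a destruction complex of AXIN, APC and glycogen synthase kinase from marking beta-catenin for breakdown. Beta-catenin then enters the nucleus and acts with factors of the TCF/LEF family on target genes, several of which encode inhibitors that feed back on the pathway. PKA is known to phosphorylate beta-catenin and glycogen synthase kinase. The comparison therefore asks whether RNA of these Wnt pathway genes differs when the PKA inhibitor is present.

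Recovered reads came to 17244715 to 23589438 per library. The 3 PKI libraries lay farther from each other than the 3 inPKI libraries did. Chi-square per degree of freedom between their recovered reads was 11.2 to 31.9 within PKI and 2.23 to 3.51 within inPKI, where 1 is sampling noise. PKIA, the gene of the alpha form of PKI, measured 9.05, 11.3 and 8.65 CPM (reads scaled to library size, the unit of the table) in inPKI and 43.2, 42.3 and 46.1 CPM in PKI, so the libraries separated by their labels. Counts per gene do not tell plasmid RNA from the cells' own. Of 8 genes fixed as markers of HEK293 and epithelial cells, 6 were at or above 1 CPM in all 6 libraries, and EPCAM was the lowest at a mean of 0.340 CPM. Their summed level was 830 to 854 CPM in inPKI and 742 to 848 CPM in PKI. The leukocyte markers summed to at most 2.42 CPM in any library, with CD3E at 0 in all 6. The 6 fibroblast markers summed to 16.8 to 20.9 CPM, and of them COL1A1 alone was at or above 1 CPM in every library, with DCN at 0 in all 6. The 5 keratinocyte markers summed to 28.8 to 53.4 CPM in inPKI and 26.0 to 30.5 CPM in PKI. Of them 3 were at or above 1 CPM in every library, KRT5, KRT10 and KRT14, with means of 13.9, 12.2 and 6.19 CPM. Of 5 hepatocyte and gut markers 4 had a row, and they summed to 27.2 to 29.5 CPM in inPKI and 23.5 to 24.7 CPM in PKI, groups that did not overlap. CDX2, which is also among the Wnt targets described further on, was the 1 of them at or above 1 CPM in every library.

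Promoter sequences were matched by symbol for 7 of the 10 members, in 11 windows of 300 bases from RefSeq on GRCh38.p14 that run from 250 bases before a transcript start to 50 after it. AXIN2, NKD1 and ZNRF3 had no entry. The letters CTTTGAT, a form of the core that TCF/LEF factors bind, were searched on both strands, and other forms of that core were not searched. These letters stood in 1 of the 11 windows, that of SP5, beginning 109 bases before its start. Over all 35116 windows 2.62% held them. The letters TGACGTCA, the cAMP response element bound by the PKA substrate CREB, stood in 0 of the 11, against 1.85% of all windows. Its part TGACG, which lies within that element, stood in 2 of the 11 against 24.6% of all windows. Those were the CTNNB1 window and the first of 3 TCF7L2 windows, both on the opposite strand and printed as CGTCA, beginning 221 and 60 bases before the start. A match is a description of letters and not a bound site. The 250 bases before the start are shown for these 3 members and for APCDD1, the member with the largest log2 change, which held none of the 3 motifs. The positions are chr2:170715087-170715336 for SP5, chr3:41199255-41199504 for CTNNB1, chr10:112949997-112950246 for TCF7L2 and chr18:10454385-10454634 for APCDD1, each on the plus strand. Capitals mark the motif letters.
SP5: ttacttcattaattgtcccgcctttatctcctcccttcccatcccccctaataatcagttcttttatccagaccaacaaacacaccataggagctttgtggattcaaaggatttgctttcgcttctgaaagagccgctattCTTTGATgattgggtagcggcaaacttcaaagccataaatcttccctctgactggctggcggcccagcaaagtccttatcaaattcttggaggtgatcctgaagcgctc
CTNNB1: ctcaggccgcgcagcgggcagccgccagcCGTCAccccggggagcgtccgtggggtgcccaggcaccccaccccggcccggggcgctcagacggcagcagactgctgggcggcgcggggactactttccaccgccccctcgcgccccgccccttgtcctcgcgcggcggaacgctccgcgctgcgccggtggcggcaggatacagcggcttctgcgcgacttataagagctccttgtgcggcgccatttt
TCF7L2: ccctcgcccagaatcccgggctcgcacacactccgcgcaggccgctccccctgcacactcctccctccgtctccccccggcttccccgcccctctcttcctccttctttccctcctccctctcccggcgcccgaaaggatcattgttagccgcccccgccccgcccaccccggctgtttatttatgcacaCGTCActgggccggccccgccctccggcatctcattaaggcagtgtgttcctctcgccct
APCDD1: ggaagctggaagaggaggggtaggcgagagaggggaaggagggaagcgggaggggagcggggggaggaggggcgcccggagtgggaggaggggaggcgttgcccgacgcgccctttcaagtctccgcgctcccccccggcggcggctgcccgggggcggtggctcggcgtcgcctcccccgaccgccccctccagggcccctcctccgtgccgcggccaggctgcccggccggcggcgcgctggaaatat

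No member passed the threshold of the test in either direction. Of the 10 members, 9 reached the level needed for testing, and SP5 did not. By limma 0 of the 9 passed an adjusted p of 0.05, against 18 of 14275 genes tested (0.126%), and edgeR likewise gave 0 of 9 against 11 of all genes (0.0771%). DESeq2 gave 0 calls among the 3 members for which it returned an adjusted p, LEF1, ZNRF3 and CTNNB1, against 253 of 6526 genes (3.88%). Without adjustment, 3 of the 9 had a limma p below 0.05, APCDD1, RNF43 and NKD1, all higher in PKI, where 7.53% of all genes tested were higher at that level. None was lower, against 6.16% of all genes. Their log2 changes on the log2(CPM + 1) scale, PKI minus inPKI, ran from -0.06 to 0.34 with a median of 0.046, against a median of -0.007 over all genes tested. With the trend of transcript length removed from each library, the median of the 9 was -0.0. In that fit the unadjusted limma p was 0.656 for NKD1, 0.0183 for APCDD1 and 0.0474 for RNF43. The groups did not overlap in 4 of the 9, APCDD1, RNF43 and NKD1 with PKI higher and AXIN2 with PKI lower, where they did not overlap in 19.7% of all genes tested (10.9% higher and 8.88% lower in PKI). With 3 libraries against 3 an exact permutation test cannot go below 0.1, and these 4 genes reached no lower.

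**Figure D1:**
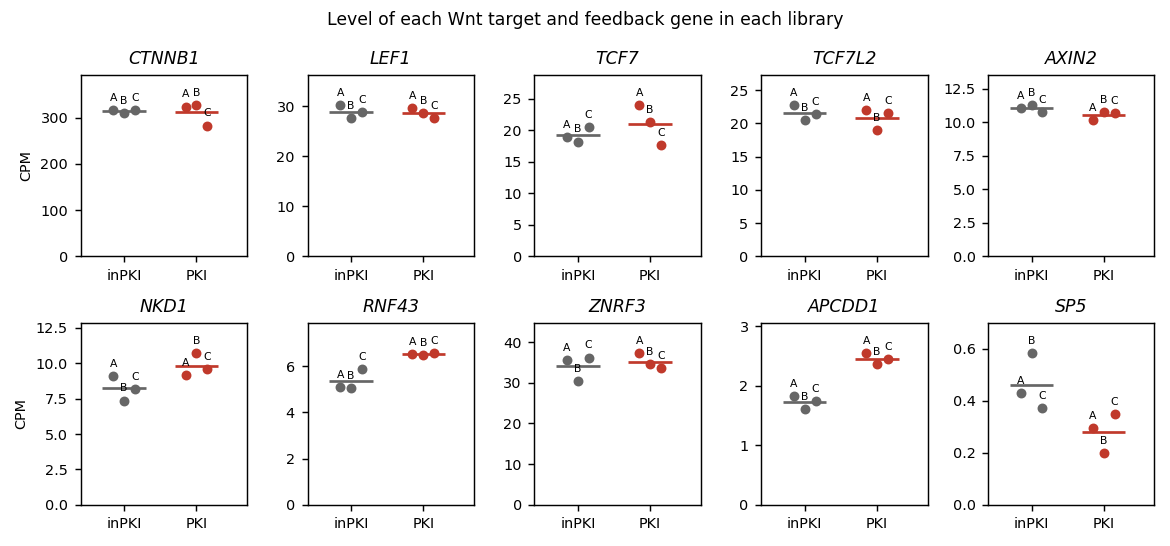
Level in CPM (vertical axes, from 0) of each of the 10 members in the 3 inPKI libraries (grey) and the 3 PKI libraries (red), with letters for the libraries and a line at each group's mean. APCDD1, RNF43 and NKD1 lie higher and AXIN2 and SP5 lower in every PKI library, while CTNNB1, LEF1, TCF7, TCF7L2 and ZNRF3 overlap.

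CTNNB1 (ENSG00000168036.16) encodes beta-catenin itself, the protein whose stability the pathway controls. It measured 316, 310 and 316 CPM in inPKI A, B and C and 324, 328 and 283 CPM in PKI A, B and C. PKI C was the lowest of all 6 and the other 2 PKI libraries the highest, so the groups overlapped. The means were 314 ± 3.81 CPM for inPKI and 312 ± 24.8 CPM for PKI (SD, n = 3 each). The log2 change was -0.01 ± 0.064 (SE, adjusted p = 0.944), with a 95% confidence interval of -0.15 to 0.12. Between 6472 and 9849 reads per library stand behind these values. Without PKI C the log2 change was 0.053. The gene lies on chromosome 3, 41194741 to 41260096 in GRCh38.

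The TCF/LEF factors bind the DNA of target genes and recruit beta-catenin. LEF1, whose own gene is a Wnt target in many tissues, measured 30.2, 27.7 and 28.7 CPM in inPKI and 29.7, 28.7 and 27.6 CPM in PKI. The PKI libraries fell within or just below the inPKI range. Its log2 change was -0.01 ± 0.063 (SE, adjusted p = 0.953), with a 95% confidence interval of -0.15 to 0.12. TCF7L2, the family member best known from intestine and liver, measured 22.8, 20.6 and 21.3 CPM in inPKI and 22.0, 19.0 and 21.6 CPM in PKI. PKI B was its lowest library, and the groups overlapped. The log2 change of TCF7L2 was -0.05 ± 0.075 (SE, adjusted p = 0.815, interval -0.21 to 0.11).

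TCF7, the factor known as TCF1 in T cells, had the widest spread of the 3 factors. It measured 18.8, 18.2 and 20.5 CPM in inPKI and 24.0, 21.4 and 17.6 CPM in PKI, so PKI A and B lay above every inPKI library and PKI C below. The log2 change was 0.12 ± 0.095 (SE, adjusted p = 0.611, interval -0.09 to 0.32), and it was 0.02 without PKI A and 0.23 without PKI C. Its exons share 210 bases with those of SKP1 on the opposite strand, a gene at 84.1 to 102 CPM, and no source used here says whether the counting used strand, so reads in that stretch cannot be told apart. The fourth gene of the family, TCF7L1, a repressor in many settings and named here as their paralogue, averaged 14.3 ± 1.27 CPM without and 13.9 ± 1.24 CPM with PKI (SD, n = 3 each; log2 change -0.04). The 3 member genes lie on chromosome 4, 108047545 to 108168956 (LEF1), chromosome 10, 112950250 to 113167678 (TCF7L2), and chromosome 5, 134114711 to 134151865 (TCF7).

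The feedback inhibitors inside the cell are AXIN2 and NKD1. AXIN2 (ENSG00000168646.12, chromosome 17, 65528563 to 65561647) encodes a scaffold of the destruction complex and is a widely used readout of Wnt activity. It measured 11.0, 11.3 and 10.8 CPM in inPKI and 10.2, 10.8 and 10.7 CPM in PKI. Every PKI library lay below every inPKI library, but inPKI C and PKI B were both at 10.8 CPM after rounding. The log2 change of -0.06 ± 0.081 (SE) did not pass (adjusted p = 0.757), and its 95% confidence interval was -0.23 to 0.11. With each library left out in turn the log2 change of AXIN2 ran from -0.078 to -0.039, the latter without PKI A. Its exons share 1316 bases with AC004805.1 on the same strand, a gene at 0 in all 6 libraries. AXIN1, the paralogue that is not a Wnt target, averaged 58.7 ± 1.45 CPM without and 62.3 ± 1.81 CPM with PKI (SD, n = 3 each; log2 change 0.09, limma adjusted p = 0.491). The groups of AXIN1 did not overlap either, but with PKI higher (57.8 to 60.3 CPM in inPKI, 60.6 to 64.2 CPM in PKI).

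NKD1 (ENSG00000140807.6, chromosome 16, 50548330 to 50649249) encodes an inhibitor that binds Dishevelled. It measured 9.13, 7.37 and 8.19 CPM in inPKI and 9.16, 10.7 and 9.58 CPM in PKI. The groups did not overlap, but PKI A exceeded inPKI A by less than the 0.0369 CPM that 1 read was worth in PKI A. Means were 8.23 ± 0.881 and 9.82 ± 0.805 CPM (SD, n = 3 each), a log2 change of 0.23 ± 0.099 (SE) that did not pass (adjusted p = 0.323). The longest NKD1 transcript in the annotation has 17105 bases, and with the trend of transcript length removed from each library the log2 change was 0.05. Its paralogue NKD2 had a log2 change of -0.05 (adjusted p = 0.808), from averages of 13.6 ± 0.620 CPM without and 13.1 ± 1.13 CPM with PKI (SD, n = 3 each).

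RNF43 and ZNRF3 are related ubiquitin ligases at the cell surface that remove Frizzled receptors and are themselves switched off by R-spondins. RNF43 (ENSG00000108375.12, chromosome 17, 58352500 to 58417595) measured 5.11, 5.07 and 5.87 CPM in inPKI and 6.54, 6.49 and 6.56 CPM in PKI. The groups did not overlap, and inPKI C was the highest of the controls. Its log2 change was 0.25 ± 0.10 (SE, interval 0.03 to 0.46) and did not pass (adjusted p = 0.304). Summed reads were 412 in inPKI and 522 in PKI, a ratio per total reads of 1.23 with an exact 95% interval of 1.08 to 1.40 that covers counting error only. The PKI SD of 0.0366 CPM is about the worth of 1 read and understates that error. Exact intervals of the same kind also excluded 1 for NKD1 (1.09 to 1.34) and for TCF7 (1.04 to 1.19), although the groups of TCF7 overlapped. In the annotation RNF43 shares 4326 exon bases with AC004687.2 on the same strand, a gene without a row in the deposited table. Reads in that stretch could stem from RNA of either gene. RNF43 also shares exon bases with SUPT4H1 on the same strand (143 bases, 39.8 to 50.7 CPM) and with TSPOAP1-AS1 on the opposite strand (1521 bases, at most 0.200 CPM).

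ZNRF3 (ENSG00000183579.15, chromosome 22, 28883592 to 29057487) had the higher level of the ligases per kilobase of transcript (5.06 against 1.07 CPM). It measured 35.7, 30.5 and 36.2 CPM in inPKI and 37.3, 34.6 and 33.7 CPM in PKI. The groups overlapped, with inPKI B the lowest. The log2 change of ZNRF3 was 0.05 ± 0.072 (SE, adjusted p = 0.810, interval -0.11 to 0.20). The receptors that bring R-spondins to these ligases, LGR4 and LGR5, averaged 31.4 ± 1.07 and 10.0 ± 0.456 CPM without and 33.0 ± 2.14 and 9.41 ± 0.891 CPM with PKI (SD, n = 3 each). Neither passed, with log2 changes of 0.07 for LGR4 and -0.09 for LGR5.

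APCDD1 (ENSG00000154856.12, chromosome 18, 10454628 to 10489948) encodes a membrane inhibitor that binds Wnt ligands and LRP5. It was low, at 1.83, 1.60 and 1.74 CPM in inPKI and 2.55, 2.36 and 2.45 CPM in PKI. Each PKI library exceeded each inPKI library. These were 47, 44 and 42 reads for inPKI and 69, 71 and 56 reads for PKI, in the order A, B, C. Means were 1.73 ± 0.115 and 2.45 ± 0.0928 CPM (SD, n = 3 each), a ratio of 1.42. The log2 change was 0.34 ± 0.13 (SE, interval 0.07 to 0.62), the largest among the 9 tested members, and it did not pass (adjusted p = 0.274). On recovered reads, without the added 1, edgeR gave a log2 change of 0.51 (adjusted p = 0.236). The ratio of summed reads per total reads was 1.43, with an exact 95% interval of 1.14 to 1.80 for counting error only. With the length trend removed the log2 change was 0.35.

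Because the groups of APCDD1, RNF43 and NKD1 did not overlap, leaving out a single library could not turn their log2 changes. Only the size could move. With each library left out in turn, the log2 change of APCDD1 ran from 0.31 to 0.37, that of RNF43 from 0.22 to 0.31 and that of NKD1 from 0.16 to 0.30, and none passed the threshold in any of these fits.

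SP5 (ENSG00000204335.3, chromosome 2, 170715351 to 170718078) encodes a zinc finger factor that is a direct target of beta-catenin in many cells. It lay below the 1 CPM needed for testing in all 6 libraries, at 0.429, 0.584 and 0.372 CPM in inPKI and 0.295, 0.200 and 0.350 CPM in PKI. Behind these values stand 11, 16 and 9 reads for inPKI and 8, 6 and 8 reads for PKI. Each PKI library was lower than each inPKI library. Summed reads were 36 against 22, a ratio per total reads of 0.59 whose exact 95% interval for counting error alone, 0.33 to 1.04, includes 1. With no filter on low values limma gave a log2 change of -0.19 (adjusted p = 0.549). SP8, a relative of SP5 with a similar DNA-binding domain, averaged 5.50 ± 0.851 CPM without and 5.02 ± 0.323 CPM with PKI (SD, n = 3 each; log2 change -0.10).

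**Figure D2:**
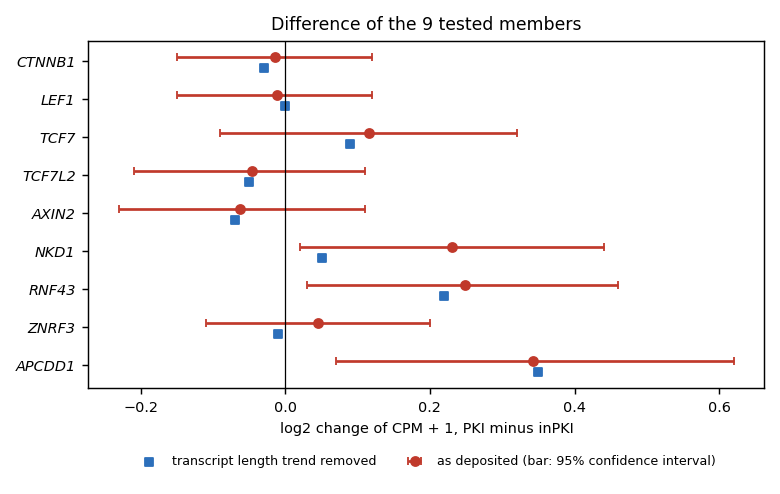
Log2 change of CPM + 1, PKI minus inPKI (horizontal axis), for the 9 tested members, with 95% confidence intervals from limma as bars (red) and the value once the transcript length trend was removed (blue squares). The intervals of APCDD1, RNF43 and NKD1 lie above 0 before adjustment over all genes, and only NKD1 of these 3 moves close to 0, from 0.23 to 0.05, when the length trend is removed.

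Levels can be compared between genes only per length, and here the mean CPM of the 6 libraries was divided by the longest annotated transcript in kilobases. CTNNB1 was highest at 64.0 CPM per kb, followed by LEF1 at 8.27. TCF7L2 and ZNRF3, at 5.13 and 5.06, did not differ beyond their spread over libraries (4.59 to 5.51 and 4.45 to 5.44). TCF7 at 3.76 (3.29 to 4.50) overlapped ZNRF3 narrowly, and AXIN2 at 2.53 and RNF43 at 1.07 stood apart from their neighbours. APCDD1 and NKD1, at 0.549 and 0.528, overlapped, and SP5 was lowest at 0.183. The position of NKD1 rests on the 17105 bases of its longest transcript.

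The transcript length trend ran with the groups over the whole table. Genes whose longest transcript is under 2000 bases (2900 genes) had a median log2 change of -0.098, and those of at least 10000 bases (592 genes) one of 0.146. Of the members NKD1 falls in the longest class, where its 0.23 stood beside that median of 0.146. RNF43 (5575 bases) and APCDD1 (3809 bases) lay above the medians of their classes, 0.013 and -0.028. The part of transcript length in the other members' values was not tested beyond the removal of the trend.

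**Figure D3:**
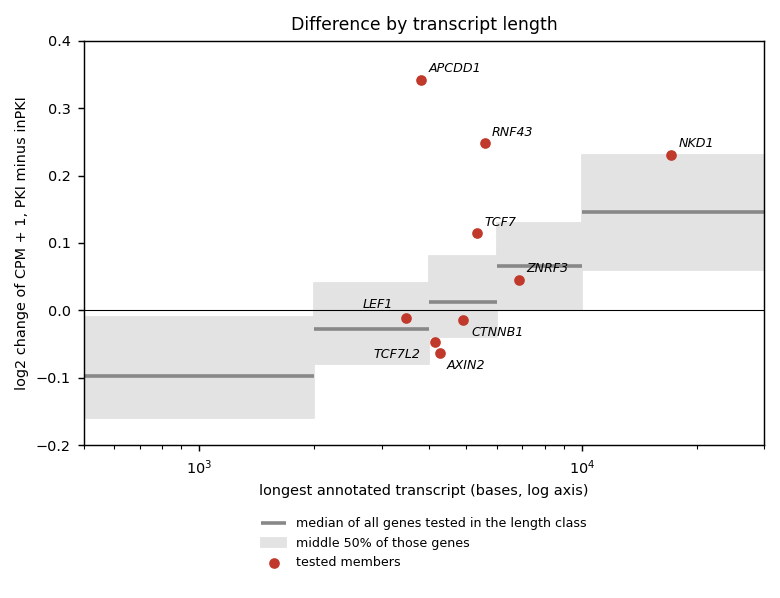
Log2 change of CPM + 1, PKI minus inPKI (vertical axis), against the longest annotated transcript in bases (log axis), for the 9 tested members (red points) over the median (grey lines) and middle 50% (grey bands) of all genes tested in 5 length classes, the first and last drawn to the edge of the plot. The class median climbs from -0.098 to 0.146, and NKD1 lies at the upper edge of the band of the longest class. RNF43, APCDD1 and TCF7 lie above the bands of their classes, and AXIN2 and, narrowly, TCF7L2 lie below that of theirs.

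The pathway around the members was read from 6 further lists of ligands, receptors, antagonists, destruction complex, nuclear partners and other targets, 120 genes in all. Of these 116 had a row and 88 were tested, and 0 passed the threshold in limma or in edgeR. Without adjustment 9 of the 88 had a limma p below 0.05, 7 higher and 2 lower, where 13.7% of all genes tested reached that level. The median log2 change of the 88 was 0.009. DESeq2 returned an adjusted p for 43 of the 88, and 2 of these passed, USP34 (adjusted p = 0.0331) and HIPK2 (adjusted p = 0.0473), where 3.88% of all genes with an adjusted p did.

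Among ligands, secretion genes and R-spondins 9 of 24 in the table were tested, with log2 changes from -0.18 to 0.25 and a median of 0.025. The smallest p was that of PORCN, the enzyme that acylates Wnt ligands for secretion, with averages of 7.98 ± 0.656 CPM without and 6.99 ± 1.28 CPM with PKI (SD, n = 3 each; limma adjusted p = 0.516). Of 19 receptor genes 17 were tested, with a median of 0.044. FZD3, a Frizzled receptor, measured 18.1, 17.3 and 19.0 CPM in inPKI and 20.6, 19.9 and 22.2 CPM in PKI, groups that did not overlap. Its log2 change was 0.20 ± 0.072 (SE, adjusted p = 0.265) and 0.04 with the length trend removed. Antagonists, not all of them secreted, were mostly low, with 7 of 15 in the table tested and 2 listed at 0 in all 6 libraries. SOSTDC1 had their smallest p. Here the log2 change was 0.26 ± 0.18 (SE, limma adjusted p = 0.529), and the groups overlapped.

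All 18 genes of the destruction complex and Dishevelled list were tested, with a median of 0.026. USP34, a deubiquitinase that acts on AXIN, measured 93.5, 86.4 and 90.4 CPM in inPKI and 104, 98.4 and 107 CPM in PKI. Its log2 change of 0.19 ± 0.055 (SE) did not pass in limma (adjusted p = 0.170) and was 0.06 with the length trend removed. The nuclear partners, 19 of 19 tested, had a median of -0.006. HIPK2, a nuclear kinase, measured 103, 94.9 and 98.6 CPM in inPKI and 116, 106 and 113 CPM in PKI. Its log2 change was 0.18 ± 0.056 (SE, limma adjusted p = 0.200) and 0.01 with the length trend removed. JUP, the paralogue of beta-catenin also called plakoglobin, averaged 39.0 ± 0.511 CPM without and 37.4 ± 3.48 CPM with PKI (SD, n = 3 each; log2 change -0.06).

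The list of other Wnt targets had 21 genes with a row, of which 18 were tested, with a median of -0.005, 9 above 0 and 9 below. CDX2, an intestinal homeobox factor, had the smallest p. It measured 28.2, 29.3 and 26.9 CPM in inPKI and 24.3, 24.2 and 23.5 CPM in PKI, and every PKI library was lower than every inPKI library. Its log2 change of -0.22 ± 0.063 (SE) did not pass (adjusted p = 0.170, 0.0789 to 0.550 over the alternatives).

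**Figure D4:**
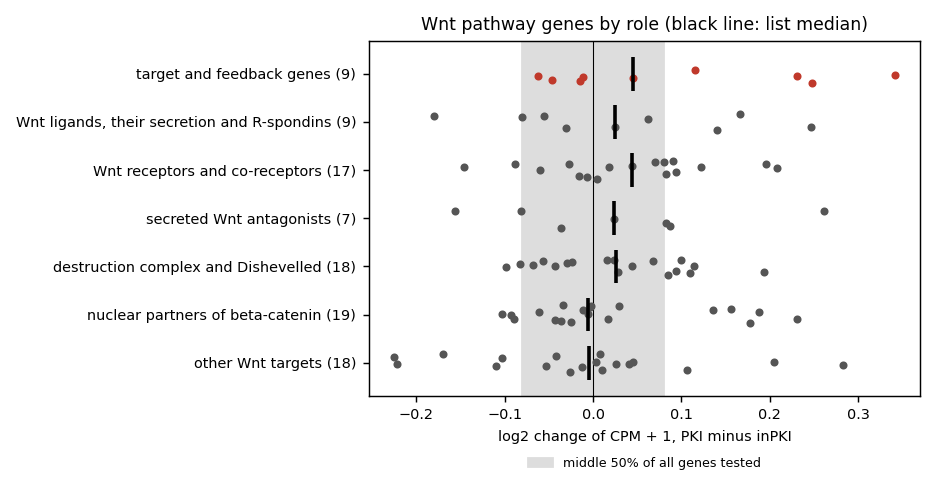
Log2 change of CPM + 1, PKI minus inPKI (horizontal axis), of each tested gene in the member list (red) and the 6 further Wnt lists (grey), with the number tested in brackets, a black line at each list's median and the middle 50% of all genes tested as a band. All 7 medians lie inside the band of -0.08 to 0.08, and none of the points passed the threshold in limma.

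The genes whose pattern over the 6 libraries was most like that of APCDD1, the member with the smallest p, were PSME4, NAV1 and MAN2A1, with Pearson r of 0.999, 0.999 and 0.996 among 11053 genes with a mean of at least 5 CPM. The points share their libraries and depth, and the highest r of so many genes over 6 points is a description only. PSME4 averaged 120 ± 2.63 CPM without and 133 ± 1.64 CPM with PKI (SD, n = 3 each), NAV1 37.8 ± 0.797 and 43.6 ± 0.606 CPM, and MAN2A1 28.8 ± 0.365 and 31.9 ± 0.391 CPM. Like APCDD1, none of the 3 passed in limma (adjusted p = 0.231, 0.160 and 0.301).

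The authors' deposited table may not rest on these 6 libraries alone, since its mean is above 0 in 2069 genes at 0 in all 6. Its mean is also 247 for APCDD1, which had 42 to 71 recovered reads per library here. For AXIN2, which had 244 to 324, that mean is only 90.6. Its values are therefore not a second test of these 6 libraries. Given as PKI over inPKI, the authors' deposited table has RNF43 at a log2 fold change of 0.30 (p = 0.0297), APCDD1 at 0.52 (p = 0.0892) and NKD1 at 0.27 (p = 0.102). In the authors' deposited table SP5 stands at -0.71 (p = 0.398), and the adjusted p of each of the 10 members is 0.999944.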

How the data were processed

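RNA was measured in 6 libraries of HEK293 cells, 3 per group, grouped by their titles. The authors deposited 1 table of CPM, which its name describes as RSEM counts with TMM scaling. Tools named in the submitters' processing notes are STAR 2.5.2b, DESeq2 1.20.0, cutadapt 1.14 and RSEM 1.3.0, on hg19, without their settings. Every CPM value (100%, tolerance 0.01 reads) could be divided evenly by its column's smallest value, which gave 17244715 to 23589438 recovered reads per library. The columns summed to 754299 (PKI C) to 785007 CPM (PKI B). Recovered reads, and ratios per total reads, thus cover the genes of the table and not the whole library. Per the file headers, the authors' deposited comparison gives a mean signal, a log2 fold change, a Wald score, p-values and a signed fold change. Its log2 values have the opposite sign to its signed folds in all 30960 rows, and are printed here turned to PKI over inPKI.

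Genes with at least 1 CPM in at least 3 libraries (14275) were fitted as log2(CPM + 1) with limma 3.58.1 in R 4.3.3 (2-sided, mean-variance trend), with p-values adjusted by Benjamini-Hochberg over these genes and a threshold of 0.05. The 1 added to each CPM shrinks the change of low genes. Every p and adjusted p is limma's unless edgeR 4.0.16, DESeq2 1.42.0 or the authors' deposited table is named. The alternatives were other pseudocounts, filters and scalings, a replicate block, no trend, sample weights, edgeR and DESeq2 on recovered reads, removal of transcript length and GC trends, and leaving out libraries. The fit was also run on simulated counts drawn with the same spread in all 6 libraries and no length trend. These data differ in both, so no conclusion is drawn from that run. Positions and lengths come from GENCODE 29 on GRCh38. Of the identifiers 30795 matched it, 28747 with the same version. The members and lists were chosen with earlier results of these data known. Named are the 10 members, PKIA, and from each other list the gene with the smallest p (up to 3 had any passed). For the member with the smallest p, the 3 genes of at least 5 CPM most like it are also named. Outside this rule, TCF7L1, AXIN1, NKD2, JUP, SP8, LGR4 and LGR5 are named for their relation to a member, genes that share exon bases with a member for that overlap, and PYGO1, EP300, CREBBP, GAD1 and MSX1 for values already seen. Figures were drawn with matplotlib 3.10.9.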

Additional observations from a re-analysis of the deposited data

How the results depend on the processing

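Under the 20 alternatives 0 members passed the threshold in any, and the lowest adjusted p of a member was 0.182, for TCF7 with sample weights. Of 179 values of a member under an alternative, 168 kept the direction of the reported log2 change and 11 turned it, all in members near 0. For APCDD1, RNF43, NKD1 and AXIN2, whose groups did not overlap, leaving out libraries could not turn it. CTNNB1 turned with sample weights (0.032), without PKI C (0.053) and without both PKI A and PKI C (0.061). The last of these fits left PKI B as the only PKI library, so that group had no replicates in it. LEF1 turned with sample weights (0.004), with length and GC trends removed (0.006), without inPKI A (0.020) and without PKI C (0.014). TCF7L2 turned without PKI B (0.017). ZNRF3 turned with the length trend removed (-0.010), with length and GC trends removed (-0.003) and without inPKI B (-0.031). Leaving out 1 library gave log2 changes of -0.052 to 0.053 for CTNNB1, -0.041 to 0.020 for LEF1, -0.084 to 0.017 for TCF7L2, -0.078 to -0.039 for AXIN2 and -0.031 to 0.089 for ZNRF3. The cause was not tested. The count of other Wnt pathway genes called was 0 under each alternative but DESeq2, which gave 2.

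Over all genes tested 18 were called (14 higher, 4 lower in PKI). The count was 4 with no filter, 4 without a trend, 11 with an equal sum (10 higher, 1 lower), 144 with sample weights, 11 by edgeR (10 higher, 1 lower), 253 by DESeq2 (119 higher, 134 lower), 10 with the length trend removed and 10 with length and GC trends removed (all higher in both), and 49 (23 higher, 26 lower) without both PKI A and PKI C. Leaving out 1 library gave 9 genes (without inPKI B) to 114 (without PKI B), with 11 without inPKI A, 37 without PKI A and 46 without PKI C. With the letter as a replicate block it was 124, and 0 members. Same-lettered libraries deviated from their group means with r of 0.0171, 0.0138 and 0.0283 for A, B and C, so the letters were not taken to pair them, although each library correlated best with its own letter. SP5, at 6 to 16 reads per library, lay below the filter and entered only the fit with no filter, and for APCDD1 the 42 to 71 reads per library limit what could be detected.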

Other observations

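Besides FZD3, USP34, HIPK2 and CDX2, 5 genes of the further Wnt lists reached an unadjusted p below 0.05. They are named for these values, once seen. PYGO1, a nuclear partner of the beta-catenin complex, and the acetyltransferase coactivators EP300 and CREBBP had log2 changes of 0.23, 0.19 and 0.16, which were 0.15, 0.08 and 0.03 with the trend of transcript length removed. CREBBP measured 129, 117 and 127 CPM in inPKI and 148, 130 and 139 CPM in PKI, and EP300 overlapped between the groups. GAD1, which encodes an enzyme of GABA synthesis, measured 3.12, 4.27 and 4.67 CPM in inPKI and 4.91, 5.09 and 5.16 CPM in PKI. Its log2 change was 0.28 with and without the trend. The homeobox gene MSX1 measured 24.2, 26.0 and 22.9 CPM in inPKI and 21.2, 22.3 and 18.7 CPM in PKI, and its log2 change of -0.23 was -0.16 with the trend removed. None of the 5 passed in limma, with adjusted p of 0.234 (MSX1) to 0.345 (GAD1).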
